A study of Homo sapiens with 10 samples.

Results

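WM983B is a human melanoma cell line derived from a metastasis, and it carries the activating BRAF mutation that replaces valine with glutamic acid. The sensitive WM983B cells were compared with WM983B E+BRes, the line selected from them for resistance to encorafenib and binimetinib (ENCO+BINI). The comparison took its libraries from the labels and rests on 2 of the 10 libraries of the series, 1 per state. The resistant cells had been passaged in rising concentrations of both drugs, from 1 nM to 200 nM, over 3 to 5 months. They were afterwards kept in 200 nM of the combination, while the sensitive cells are the original line without selection. Resistance and the presence of the drugs therefore cannot be told apart in these data. The 4 other pairs of the series, WM983A, WM278, WM1617 and WM902B, carry the same BRAF change and were selected in the same way. WM983A was established from the primary tumour of the same patient as WM983B. Each resistant line is a single selected culture, and nothing in the sources says whether it was cloned.

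Encorafenib blocks mutant BRAF and binimetinib blocks MEK, the kinase below it, so that both drugs lower ERK signalling. Melanoma cells that live with such drugs are known to move along an axis from a pigmented, MITF- and SOX10-driven state to a state rich in matrix, receptor tyrosine kinase and AP-1 gene expression. Type I and type II interferons act through STAT proteins on short promoter elements and switch on a shared set of antiviral and antigen presentation genes, and tumour cells can keep part of that set on without added interferon.

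The sensitive library held 14684910 counts and the resistant library 14769170, against a range of 13693920 to 18033250 over the 10 libraries. Counts were divided by these totals and are given in CPM, the usual depth-scaled unit. Log2 ratios are of CPM with 1 added, resistant over sensitive, and a gene is called at least 2-fold higher or lower where this ratio is at least 1 or at most -1. Folds are plain ratios of CPM, with an exact 95% counting interval. There are no replicates, so no test was made, and the intervals cover counting error only. A gene whose count rounded to 0 in a library was set to 3 counts, 0.204 CPM in the sensitive and 0.203 CPM in the resistant library, and its fold is written as a bound. Ribosomal protein genes took 3.27% of the sensitive and 2.92% of the resistant counts. In bulk RNA, fewer cells expressing a gene and less RNA per cell cannot be told apart.

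Both libraries carried markers of the melanocyte lineage, whose 10 markers summed to 2124 CPM in the sensitive and 183 CPM in the resistant library. Markers of other cell types were also measured. The 6 leukocyte markers summed to 4.14 and 5.69 CPM, with PTPRC at 1 and 0 counts and CD3E at 0 in both. Most of these sums came from LYZ, with 53.9 and 0 counts, and CD14, with 5 and 81. The 5 endothelial markers summed to 0.409 and 1.83 CPM. The 6 fibroblast markers summed to 90.1 and 226 CPM. Within the fibroblast set PDGFRB and FAP were higher in the resistant library, and so was PDGFRA, with 9 and 38.5 counts, while the defining fibroblast gene DCN had 13 and 2 counts, THY1 3.50 and 3.51, and LUM 1159 and 918. Of a longer fibroblast list, 7 of 9 genes were expressed, of which 5 were at least 2-fold higher and 0 lower, the collagen genes COL1A1 and COL3A1 among them with 5.99 and 1418 and 0 and 25.4 counts. With 4 added to CPM in place of 1, 3 were higher. The count of 5 rests largely on the minimum for calling a gene expressed, which 3 of the 7 reached in the resistant library alone. Of the 4 that reached it in both libraries, 2 were higher and 0 lower. The 6 epithelial markers summed to 2.25 and 22.1 CPM, with KRT1 and DSG3 at 0 in both. Most of the rise came from TP63, with 17 and 308 counts, 1.16 and 20.8 CPM. The part of other cells in the differences described here was not tested.

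Of 57955 genes, 16683 had at least 20 counts in either WM983B library and are called expressed here. A difference of at least 2-fold was found for 4053 of them. In the resistant library 2650 genes (15.9% of the expressed genes) were at least 2-fold higher and 1403 (8.41%) at least 2-fold lower. These shares are the background for every list described later. Of the higher genes 921 had fewer than 20 counts in the sensitive library and of the lower genes 353 in the resistant one, and such a gene entered only through the library in which it was high. The median log2 ratio over all expressed genes was 0.08, with an SD over genes of 1.04. Large differences were more often increases, with 89 genes at least 16-fold higher and 33 at least 16-fold lower. Among protein-coding genes 2087 of 12884 were higher and 1129 lower.

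**Figure D1:**
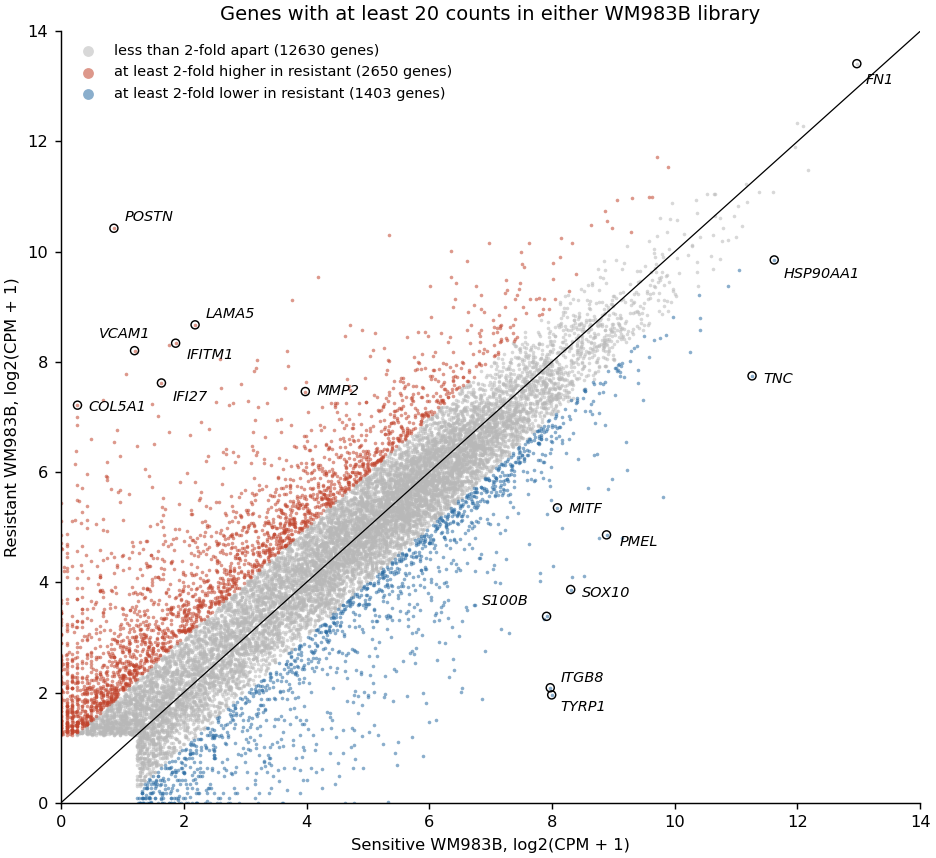
Each point is 1 expressed gene, with log2(CPM + 1) in the sensitive WM983B library on the horizontal axis and in the resistant library on the vertical axis, and the line marks equal levels. Red points are the 2650 genes at least 2-fold higher in the resistant library and blue points the 1403 at least 2-fold lower. POSTN stands apart at the upper left, and TYRP1 and ITGB8 lie together at the lower right.

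The gene that moved furthest was POSTN, which encodes periostin, a secreted matrix protein that binds integrins and collagen (chr13:37562583-37598844, GRCh38). It had 12 and 20283 counts (0.817 and 1373 CPM) in the sensitive and the resistant library, and was 1681-fold higher (counting interval 962 to 3253). No other library of the series came near this level. The 9 others lay between 0 and 8.91 CPM, the highest being resistant WM278. The log2 ratio was 9.56 in WM983B, 0.09 in WM902B, 2.81 in WM278, 0.45 in WM983A and 1.14 in WM1617.

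MMP2, a gelatinase that cleaves basement membrane collagen (chr16:55389700-55506691), had 217 and 2588 counts (14.8 and 175 CPM), 11.9-fold higher (counting interval 10.32 to 13.7) in resistant WM983B. Resistant WM902B held more of it, with 885 CPM, but started from 278 CPM. IFITM1, a membrane protein induced by interferon that restricts virus entry (chr11:310041-315272), had 38.9 and 4768 counts (2.65 and 323 CPM) and was 122-fold higher (counting interval 88.8 to 171). Its level in resistant WM983B was the highest of the series. The other libraries held 0 to 33.2 CPM, and the log2 ratio was 3.96 in WM902B, 2.10 in WM278, 0.07 in WM983A and -0.68 in WM1617. IFITM1, IFITM2 and IFITM3 are close neighbours with similar sequences, and how reads shared by them were assigned is not given in the sources used here, so the split among the 3 is uncertain.

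The 12 protein-coding genes with the largest increases held several matrix and adhesion genes. VCAM1, an adhesion receptor for leukocyte integrins (chr1:100719742-100739045), had 19 and 4339.9 counts and was 227-fold higher (counting interval 145 to 378). COL5A1, which encodes a chain of fibrillar collagen V, had only 3 counts in the sensitive library against 2179, a ratio of 722 with a counting interval of 247 to 3505. COL1A1, the main chain of collagen I, had 5.99 and 1418 counts. LAMA5, a laminin chain of basement membranes, had 52.1 and 6010.4 counts and was 115-fold higher (counting interval 87.5 to 154). These matrix and adhesion genes stood at a few CPM or less in sensitive WM983B and rose to 96.0 to 407 CPM in the resistant cells.

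The other large increases fell outside the matrix. FLNC, an actin crosslinker of muscle, had 8.90 and 2339 counts. The chemokine CXCL12 had 3 and 1690.2 counts, and ADM, the vasodilator peptide adrenomedullin, 2.72 and 1217. With so few counts in the sensitive library their ratios are loose, 560.2 (191 to 2719) for CXCL12 and 444 (138 to 1959) for ADM. SAMD11 was 204-fold higher (counting interval 124 to 354) and IGFN1 132-fold higher (counting interval 95.03 to 190.3). TMEM178B completed the set with 3 and 1873 counts.

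**Figure D2:**
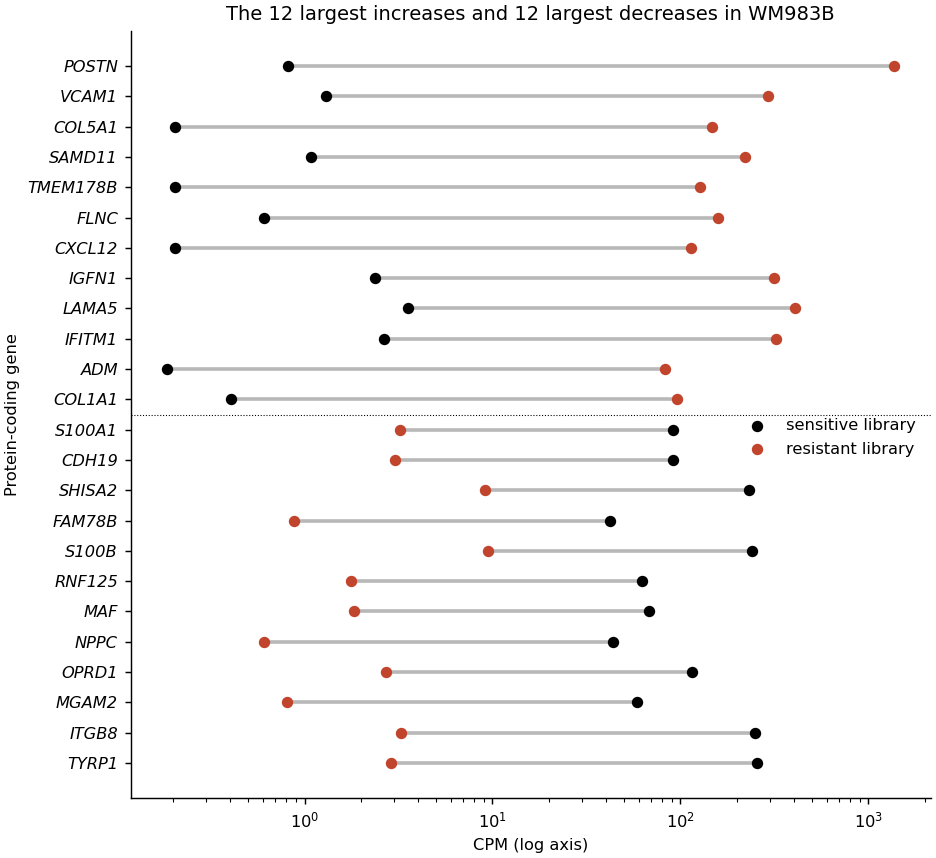
CPM of the 12 protein-coding genes with the largest increase and the 12 with the largest decrease in log2 ratio, on a log axis, with black points for the sensitive and red points for the resistant WM983B library, 1 library each. POSTN goes from 0.817 to 1373 CPM at the top, and TYRP1 from 254 to 2.88 CPM at the bottom.

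At the other end stood genes of the melanocyte and neural crest lineage. TYRP1, an enzyme of eumelanin synthesis (chr9:12685439-12710285), had 3732 and 42.6 counts (254 and 2.88 CPM) and was 88.2-fold lower (counting interval 64.7 to 121). S100B, the calcium-binding protein used to stain melanoma, had 3521 and 139 counts and was 25.4-fold lower (counting interval 21.5 to 30.4). S100A1 was 28.5-fold lower (counting interval 21.5 to 39.4) and CDH19, a cadherin of the neural crest lineage, 29.9-fold lower (counting interval 22.2 to 41.2). Their levels in the resistant library were low but well above the floor.

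The remaining large decreases were of mixed function. ITGB8, an integrin chain that releases active TGF-beta, had 3671 and 47.9 counts and was 77.0-fold lower (counting interval 57.9 to 105). OPRD1, the delta opioid receptor, was 42.6-fold lower (counting interval 31.1 to 59.8). NPPC, the precursor of C-type natriuretic peptide, had 642 and 9 counts. The transcription factor MAF was 37.4-fold lower, the ubiquitin ligase RNF125 35.7-fold lower and SHISA2, an inhibitor of WNT and FGF receptor maturation, 25.4-fold lower. MGAM2 was 72.1-fold lower and FAM78B 48.1-fold lower. All 12 were also at least 2-fold lower in resistant WM983A, the line from the same patient, with log2 ratios from -7.13 to -3.99. Of all expressed genes of WM983A, 18.7% were at least 2-fold lower. In WM902B 8 of the 12 were lower and 1 higher, in WM278 3 lower and 4 higher, and in WM1617 1 lower and 5 higher. Of all expressed genes 9.55%, 5.39% and 2.44% were lower in these 3 lines.

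Of the 12 largest increases, 10 were at least 2-fold higher in WM902B, 10 in WM278, 5 in WM983A and 4 in WM1617, where 13.9%, 10.4%, 16.1% and 1.18% of all expressed genes were. VCAM1 and TMEM178B were lower in WM983A, with log2 ratios of -1.57 and -1.003.

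In absolute terms other genes moved more. FN1, which encodes fibronectin, gained most, from 8008 to 10896 CPM, but this was 1.36-fold higher (counting interval 1.35 to 1.37), under the 2-fold mark. CTSD, a lysosomal protease, rose from 836 to 3348 CPM. FTL, the light chain of the iron store ferritin, and TXNRD1, thioredoxin reductase, were 3.17-fold higher and 2.69-fold higher. The largest loss in CPM was that of TNC, the matrix glycoprotein tenascin C, from 2451 to 214 CPM, 11.47-fold lower (counting interval 11.1 to 11.9). The chaperone genes HSP90AA1 and HSPA8 were 3.42-fold lower and 2.60-fold lower, and the protease inhibitor SERPINE2 3.57-fold lower. HSP90AB1 went from 3119 to 2172 CPM, a log2 ratio of -0.52.

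Genes of the extracellular matrix were described by list. Among collagens, 9 of 14 expressed members were higher, 1 lower, with a median log2 ratio of 1.54, beside 0.08 for all expressed genes. The collagen VI chains rose together. COL6A1 had 1184 and 10968 counts, COL6A2 583 and 18583, and COL6A3 279 and 1332. The basement membrane chain COL4A1 was 2.27-fold higher, while COL4A2 stayed under 2-fold at a log2 ratio of 0.78. COL1A2, the partner of COL1A1 in collagen I, was not expressed by the count minimum, with 1.97 and 13 counts. COL14A1, a collagen that binds fibrils, went the other way and was close to lost, with 173 and 2.57 counts. Of the 10 that reached 20 counts in both libraries, 6 were higher and 0 lower. 3 of the 17 listed collagens were below the minimum.

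Matricellular proteins and matrix glycoproteins were split. In that list 5 of 14 expressed members were higher, 2 lower, with a median log2 ratio of 0.12. The number higher rests largely on the count minimum, which 4 members reached in the resistant library alone. Of the 10 that reached it in both libraries, 2 were higher and 2 lower. Beside POSTN, the proteoglycan genes BGN, with 11.9 and 1363 counts, and VCAN, with 713 and 5161, were higher, whereas TNC and EMILIN1 were lower. SPARC and THBS1 had log2 ratios of -0.58 and -0.64. Enzymes that process and crosslink collagen leaned upward, and of them 7 of 15 expressed members were higher, 1 lower, with a median log2 ratio of 0.78. The lysyl oxidases LOXL1 and LOXL2 went from 4 to 556 counts and from 1427 to 13442, 138-fold higher and 9.36-fold higher. ADAMTS2, a procollagen peptidase, had no count in the sensitive library and was at least 15.0-fold higher. PLOD2, a lysyl hydroxylase, was 4.07-fold higher.

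Matrix proteases and their inhibitors moved in both directions, and 9 of 18 expressed members were higher, 4 lower, with a median log2 ratio of 0.76. Of the 14 that reached 20 counts in both libraries, 5 were higher and 4 lower, and with 4 added to CPM 5 of all expressed members were higher. The gelatinase MMP9 had 174 and 4326 counts and was 24.7-fold higher (counting interval 21.2 to 28.9). The membrane proteases MMP15 and MMP16 were 7.83-fold lower and 4.11-fold lower, and the plasminogen activator PLAT 3.12-fold lower. MMP14, the main activator of MMP2, had a log2 ratio of 0.02, and MMP1 was at 0 and 1 counts. Integrin genes moved in both directions, with 5 of 16 higher and 4 lower. The collagen-binding chain ITGA11 was 48.8-fold higher and ITGA3 and ITGA5 4.85-fold higher and 3.27-fold higher. ITGA6 and ITGA4 were 5.39-fold lower and 4.61-fold lower, and the shared chain ITGB1 had a log2 ratio of 0.15.

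Contractile and actin-binding genes were largely higher. There 10 of 14 expressed members were higher, 1 lower, with a median log2 ratio of 1.56. MYLK, myosin light chain kinase, had 493 and 5427 counts, and the tropomyosin genes TPM1 and TPM2 were 5.21-fold higher and 10.8-fold higher. Smooth muscle actin ACTA2 was 2.67-fold higher, whereas ACTG2 was 3.81-fold lower. Of the transcription factors and cadherins linked to the epithelial-mesenchymal transition (EMT), 4 of 9 expressed members were higher, 1 lower, with a median log2 ratio of 0.52, and 2 were higher with 4 added to CPM. Of the 7 EMT genes that reached the count minimum in both libraries, 2 were higher and 1 lower. SNAI1 was 3.13-fold higher and SNAI2 5.53-fold lower. VIM, CDH2 and TWIST1 had log2 ratios of -0.07, -0.16 and 0.36, and CDH1 was at 0 and 1 counts.

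**Figure D3:**
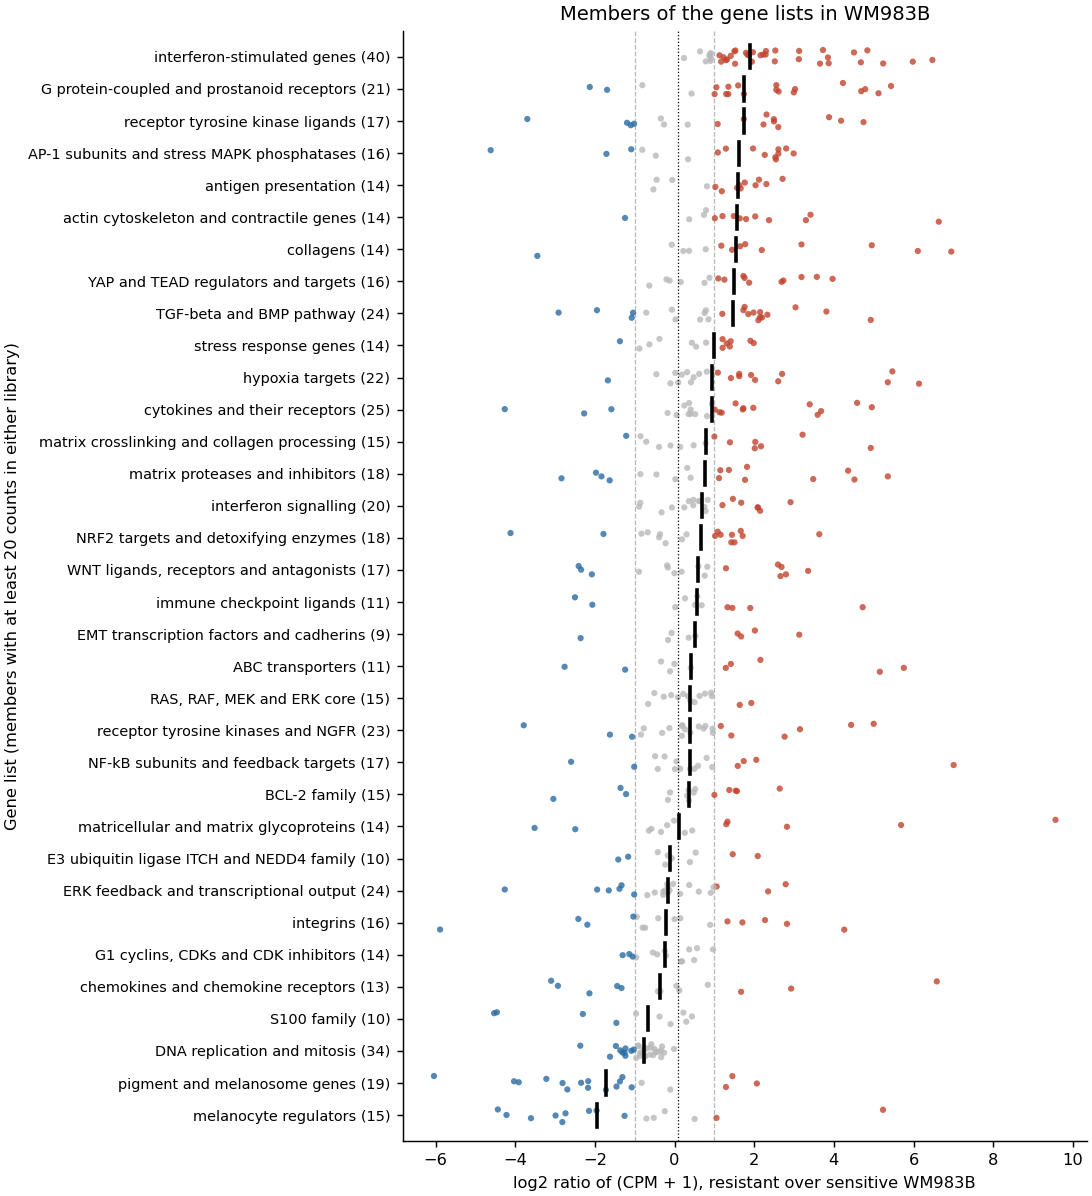
Each point is 1 expressed member of a gene list, placed by its log2 ratio of (CPM + 1), resistant over sensitive WM983B, with the number of expressed members in parentheses. Black bars are list medians, the dotted line is the median of all expressed genes (0.08), dashed lines mark 2-fold, and lists of at least 9 expressed members are shown. Interferon-stimulated genes have the highest median (1.90) with no member below 0, and melanocyte regulators the lowest (-1.96).

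The melanocyte program was lower in resistant WM983B. Among regulators of the lineage, 2 of 15 expressed members were higher, 9 lower, with a median log2 ratio of -1.96. SOX10, the neural crest transcription factor (chr22:37970686-37987422), had 4629 and 201 counts (315 and 13.6 CPM) and was 23.2-fold lower (counting interval 20.1 to 26.8). MITF, the master regulator of pigment cells (chr3:69739456-69968336), had 3983 and 588 counts (271 and 39.8 CPM) and was 6.81-fold lower (counting interval 6.25 to 7.44). ERBB3, a SOX10 target and neuregulin receptor, was 19.7-fold lower, and DMRT2 had no count left, at least 54.9-fold lower. Not all regulators followed. PAX3, which acts with SOX10 on the MITF promoter, had a log2 ratio of -0.25, and SOX9, which opposes SOX10 in melanoma cells, had 3 and 654 counts.

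Pigment and melanosome genes went down with them. Here 3 of 19 expressed members were higher, 14 lower, with a median log2 ratio of -1.72. PMEL, the fibril protein of melanosomes, had 6945 and 414 counts and was 16.9-fold lower (counting interval 15.3 to 18.7). TYR, the tyrosinase that starts melanin synthesis, was 19.8-fold lower (counting interval 14.6 to 27.4) and DCT 9.47-fold lower (counting interval 8.78 to 10.23). The exceptions were MLPH, a linker of melanosome transport, 4.25-fold higher, GPR143, 2.54-fold higher, and MLANA, which was low in both states with 13.6 and 63.1 counts.

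MITF binds a motif known as the M-box, searched here as TCATGTG or TCACGTG on both strands, the latter of which also holds the general E-box CACGTG. The promoters searched run from 250 bases before to 50 bases after each gene start and were taken from RefSeq on GRCh38.p14, with 11006 expressed genes matched by name. An M-box was present in 8 of 16 matched pigment genes (50%), in 10.4% of the genes at least 2-fold lower, in 7.80% of those higher and in 9.51% of all expressed genes matched. The 4 pigment genes with an upstream M-box and the largest fall are shown to let the motif be seen beside the change, each in gene orientation with the bases around the match farthest upstream, which is in capitals.
TYRP1 (chr9:12693210-12693276, plus strand): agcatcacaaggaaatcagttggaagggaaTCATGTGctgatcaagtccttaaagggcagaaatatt
TYR (chr11:89177740-89177806, plus strand): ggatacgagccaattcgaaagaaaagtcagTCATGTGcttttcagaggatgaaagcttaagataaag
DCT (chr13:94479861-94479927, minus strand): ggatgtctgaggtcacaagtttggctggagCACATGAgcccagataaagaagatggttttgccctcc
SLC24A5 (chr15:48120945-48120989, plus strand): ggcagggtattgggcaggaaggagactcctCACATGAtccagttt
The first base of the motif lay 145, 105, 215 and 15 bases before the gene start in TYRP1, TYR, DCT and SLC24A5, and in the last pair it is written on the opposite strand. Their log2 ratios were -6.04, -3.91, -3.22 and -2.69. A match describes letters only.

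Interferon-stimulated genes, the antiviral and antiproliferative targets of interferon signalling, were largely higher in resistant WM983B. All 40 listed genes were expressed, 32 were at least 2-fold higher, 0 were lower, and their median log2 ratio came to 1.90. Their summed level went from 2280.3 to 10164 CPM. After IFITM1 the largest increase was that of IFI27, a mitochondrial protein, with 31.0 and 2886 counts, 92.7-fold higher (counting interval 65.1 to 136). TRIM22, an antiviral ubiquitin ligase, had 20 and 1301 counts. XAF1, a promoter of apoptosis, and RSAD2, the antiviral enzyme viperin, were 28.7-fold higher and 15.8-fold higher.

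The sensitive cells already expressed many of these genes. OAS3 had 2920.0 counts in the sensitive library and 8345 in the resistant, LGALS3BP 6849 and 25160.0, and IFI6 2899.8 and 16758. IFITM1, IFI27, TRIM22 and MX2 in contrast had few counts in the sensitive library and large ratios. MX1, a dynamin-like antiviral GTPase on chromosome 21, stood out with 48.4 and 60.0 counts, a log2 ratio of 0.24, while its neighbour MX2 had 24.97 and 890.4. The sensors DDX58 (RIG-I) and IFIH1 (MDA5) had log2 ratios of 0.87 and 0.91, just under 2-fold.

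The interferon response element was searched as its core on both strands, GAAA and GAA with any pair of bases between them. It was found in 25 of 32 matched interferon-stimulated genes (78.1%), against 8.80% of all expressed genes matched and 8.11% of all 35116 promoter entries. Genes at least 2-fold higher as a whole held it in 10.4% of matched promoters and those lower in 9.57%. Pigment genes held it in 4 of 16 matched promoters (25%). The 4 list members with an upstream match and the largest increase are shown from the same RefSeq promoters. TRIM22, IFITM2 and MX2 rose more than RSAD2 and IFI44L, with log2 ratios of 5.24, 4.84 and 4.50, but are not shown. In each sequence the core farthest upstream is in capitals.
IFITM1 (chr11:313970-314038, plus strand): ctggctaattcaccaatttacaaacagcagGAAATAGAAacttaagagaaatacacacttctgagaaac
IFI27 (chr14:94110599-94110667, plus strand): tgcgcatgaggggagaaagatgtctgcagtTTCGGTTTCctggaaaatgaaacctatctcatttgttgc
RSAD2 (chr2:6865776-6865844, plus strand): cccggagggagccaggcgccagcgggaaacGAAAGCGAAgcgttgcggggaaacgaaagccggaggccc
IFI44L (chr1:78620254-78620322, plus strand): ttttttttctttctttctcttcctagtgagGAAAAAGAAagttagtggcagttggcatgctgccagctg
In IFI27 the core is written on the opposite strand. The core began 40, 107, 79 and 164 bases before the RefSeq start of IFITM1, IFI27, RSAD2 and IFI44L. Their log2 ratios were 6.47, 5.98, 3.87 and 3.85. The RefSeq start of IFITM1 lies inside the gene span given earlier.

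The signalling genes above this set moved less. Of them 7 of 20 expressed members were higher, 0 lower, with a median log2 ratio of 0.70. The transcription factor STAT2 was 3.22-fold higher, with 1127 and 3648 counts. IRF1 and IRF7 were 4.31-fold higher and 4.59-fold higher, and TMEM173 (STING), the adaptor of cytosolic DNA sensing, 4.71-fold higher. The feedback inhibitor SOCS1 was 11.47-fold higher. The receptor chains stayed under 2-fold, with log2 ratios of -0.89 for IFNAR1, -0.06 for IFNAR2 and -0.33 for IFNGR2, all 3 on chromosome 21, and 0.75 for IFNGR1. Interferon genes themselves stayed near the floor, with IFNB1 at 3 and 3 counts and IFNL1 at 0 and 1.98.

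Antigen presentation genes rose alongside. In that list 10 of 14 expressed members were higher, 0 lower, with a median log2 ratio of 1.60. HLA-B had 1244 and 8278 counts and was 6.62-fold higher (counting interval 6.23 to 7.03), and B2M, the invariant light chain of class I, was 3.17-fold higher (counting interval 3.08 to 3.25). NLRC5, the activator of class I genes, was 4.34-fold higher. CIITA, which activates class II genes, had a log2 ratio of -0.53. HLA genes share reads, so the split among the class I genes is uncertain, and TAP1 and PSMB8 are listed at 0 in both WM983B libraries. Among ligands and receptors of immune checkpoints 4 of 11 were higher and 2 lower, or 2 and 1 with 4 added to CPM. Of these 11, 2 reached the count minimum in the resistant library alone and 2 in the sensitive library alone. Of the 7 checkpoint genes that reached it in both libraries, 2 were higher and 0 lower. LGALS9 (galectin-9) had 13.8 and 741 counts, PDCD1LG2 (PD-L2) 0 and 40.3, and CD274 (PD-L1) 40 and 63.8, the last a log2 ratio of 0.51. CTLA4 and ICOS, receptors usually found on T cells, fell from 55 to 2 counts and from 74 to 1 count.

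The receptors and ligands upstream of the MAPK pathway were examined next. Of the receptor tyrosine kinases and NGFR, 6 of 23 expressed members were higher, 3 lower, with a median log2 ratio of 0.40. With 0.25 added to CPM in place of 1, 5 receptors were lower. PDGFRB had 27.1 and 1327 counts and was 48.8-fold higher (counting interval 33.4 to 74.4). EGFR had 161 and 1551 counts and was 9.59-fold higher (counting interval 8.14 to 11.3), and FGFR1 was 6.98-fold higher. EPHB2 had 1 count and 326 counts, a ratio of 324 with an interval of 57.8 to 12842. AXL, often raised in resistant melanoma, had 3709 and 3408 counts and a log2 ratio of -0.13, and MET one of 0.96. NGFR, the neural crest stem cell receptor, was 14.6-fold lower (counting interval 12.8 to 16.8).

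Ligands of these receptors were more often higher, and 10 of 17 expressed members were higher, 4 lower, with a median log2 ratio of 1.74. With 4 added to CPM 1 ligand was lower. VEGFC, which drives lymphatic growth, had 69.8 and 2262 counts and was 32.2-fold higher (counting interval 25.3 to 41.4). PDGFB and PDGFA were 43.3-fold higher and 5.76-fold higher. PDGFC was 6.40-fold higher as well, whereas PDGFD was 2.79-fold lower. BDNF, VEGFA and FGF2 were 19.5-fold higher, 6.12-fold higher and 3.59-fold higher. TGFA, a ligand of EGFR, moved against its receptor and was 17.2-fold lower (counting interval 12.6 to 24). HGF, the ligand of MET, was at 1 and 0 counts.

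In the RAS, RAF, MEK and ERK core 2 of 15 genes (13.3%) were higher, near the background of 15.9%, and 0 lower. MAP3K8 (COT), a kinase that can activate MEK without RAF, had 16.2 and 104 counts and the scaffold KSR1 71.0 and 253. BRAF had a log2 ratio of 0.76 and NRAS of -0.66.

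Genes that read out ERK activity were spread around 0, and 3 of 24 expressed members were higher, 6 lower, with a median log2 ratio of -0.18. LIF, a cytokine of the interleukin-6 family, was 19.6-fold lower (counting interval 18.1 to 21.2). The feedback phosphatases DUSP6 and DUSP4 were 3.18-fold lower and 2.62-fold lower and the factor ETV4 4.01-fold lower. FOSL1, SPRY4, ETV5 and CCND1 stayed under 2-fold, with log2 ratios of -0.24, -0.28, -0.17 and 0.37. EGR1, an immediate early gene, was 7.01-fold higher (counting interval 6.55 to 7.51). In the same list WM902B had a median of -1.78, WM983A of -1.54, WM278 of -1.18 and WM1617 of 0.04.

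AP-1 subunits and stress MAPK phosphatases were higher as a group, since 10 of 16 expressed members were higher, 3 lower, with a median log2 ratio of 1.63. FOSL2 had 547 and 4474 counts and JUN 352 and 2232. FOSB, JUNB, JUND and FOS were 8.01-fold higher, 6.18-fold higher, 4.96-fold higher and 4.002-fold higher. MAF and DUSP10 were among the lower ones. The AP-1 site TGACTCA was found on either strand in 6.995% of matched promoters of genes at least 2-fold higher, in 5.70% of those lower and in 5.01% of all expressed genes matched.

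Targets of the mechanosensitive coactivator YAP and its DNA-binding partners, the TEAD factors, were higher too. Here 10 of 16 expressed members were higher, 0 lower, with a median log2 ratio of 1.49. CYR61 (CCN1), a secreted matricellular target, had 1838 and 16955 counts and CTGF (CCN2) 579 and 3827. F3, the tissue factor that starts coagulation, was 17.4-fold higher (counting interval 14.5 to 21.04) and ANKRD1 20.8-fold higher (counting interval 12.96 to 35.4). YAP1 itself was 3.35-fold higher, while its paralog WWTR1 (TAZ) had a log2 ratio of -0.63. The TEAD motif GGAATG stood in 7 of 11 matched promoters of this list and in 15.1% of all expressed genes matched, 15.9% of those higher and 16.6% of those lower.

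In the TGF-beta and BMP pathway 13 of 24 expressed members were higher, 4 lower, with a median log2 ratio of 1.46. TGFB1 had 809.8 and 3777 counts and was 4.64-fold higher, the receptor ENG 4.34-fold higher and SMAD3 3.40-fold higher. The target genes ID1 and ID3 and the inhibitor SMAD7 were 3.34-fold higher, 4.06-fold higher and 5.54-fold higher, and ID4 was 9.37-fold lower. BMP5 and the BMP antagonist GREM1 came up from the floor, from 2 to 495 and from 3 to 235 counts. WNT genes were mixed, with 6 of 17 higher and 3 lower. The ligands WNT5A and WNT5B, of the branch that does not use beta-catenin, were 7.23-fold higher and 12.6-fold higher. FZD8 and the antagonist SFRP1 were 9.04-fold lower and 5.37-fold lower.

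Secreted immune mediators changed in both directions. Of the cytokines and their receptors 12 of 25 expressed members were higher, 3 lower, with a median log2 ratio of 0.94. Of the 17 that reached 20 counts in both libraries, 6 were higher and 2 lower. IL6 had 35.3 and 1542 counts and was 43.4-fold higher (counting interval 31.4 to 63.1), and CSF1, the growth factor of macrophages, 13.2-fold higher (counting interval 11.96 to 14.6). The death ligand TNFSF10 (TRAIL) was 18.3-fold higher. Against these stood LIF, the receptor IL6R, 5.40-fold lower, and IL24, 4.80-fold lower. Chemokines were divided. CXCL12 and CCL5 were higher, CCL5 with 265 and 2125 counts, whereas the neutrophil attractants CXCL8 and CXCL1 went from 7355 to 852 counts and from 2876 to 368, 8.69-fold lower and 7.87-fold lower. CXCL2, of the same kind, was 4.18-fold higher. CCL2 had a log2 ratio of 0.05. In the whole chemokine list 3 of 13 were higher and 5 lower, and 2 were lower with 4 added to CPM. Of the 9 chemokine genes that reached 20 counts in both libraries, 2 were higher and 2 lower. Of NF-kB subunits and feedback targets 4 of 17 were higher and 2 lower, with NFKB1 at -0.25 and RELA at 0.39 in log2 ratio.

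Of the G protein-coupled and prostanoid receptors 17 of 21 expressed members were higher, 2 lower, with a median log2 ratio of 1.74. This count rests largely on the count minimum, since 12 of the expressed members reached it in the resistant library alone. Of the 7 that reached 20 counts in both libraries, 5 were higher and 0 lower, and with 4 added to CPM 10 of all expressed members were higher. FPR3, a formyl peptide receptor, went from none to 624 counts, at least 207-fold higher, and PTGIR, the prostacyclin receptor, from none to 499, at least 165-fold higher. SUCNR1, the succinate receptor, had 1 count and 421 counts. Others were already present, among them S1PR3, 41.4-fold higher, and the thrombin receptor F2R with 1254 and 10148 counts. FPR3 and PTGIR had log2 ratios of at most 0.17 and 0.47 in the other 4 lines.

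Hypoxia targets were higher in part, with 11 of 22 up and 1 down. EPAS1 (HIF-2 alpha) had 74.0 and 3930.0 counts and NDRG1, a stress-responsive gene, 253 and 10991. Glycolytic targets such as PGK1, ENO1 and SLC2A1 had log2 ratios of 0.02, 0.18 and 0.31, and HIF1A of 0.09. Of NRF2 targets and detoxifying enzymes 9 of 18 expressed members were higher, 2 lower, with a median log2 ratio of 0.66. The classical target NQO1 had a log2 ratio of -0.39 and HMOX1 of 0.30, whereas FTH1 and SLC7A11 were 2.12-fold higher and 2.03-fold higher. The retinal dehydrogenases ALDH1A1 and ALDH1A3 were 77.7-fold lower (counting interval 30.04 to 287) and 3.46-fold lower. AKR1C3 had 3 and 206 counts, and the AKR1C genes are near copies whose reads may be split.

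Among ABC transporters 5 of 11 were higher and 2 lower. The drug and conjugate exporters ABCC3 and ABCC2 went from 26.2 to 2209 counts and from 10 to 869, 83.7-fold higher (counting interval 57.5 to 129.6) and 86.4-fold higher (counting interval 46.8 to 181). ABCB1, the multidrug pump, was not expressed, with 8.99 and 3.97 counts, and ABCB5 had 105 and 3. Stress genes were higher for 7 of 14 members and lower for 1. The members of the integrated stress response TRIB3, DDIT3, CHAC1 and ASNS were 2.503-fold higher, 2.75-fold higher, 2.83-fold higher and 2.35-fold higher, while the heat shock genes HSPH1, DNAJB1 and HSPA1A had log2 ratios of -1.37, -0.88 and -0.38.

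Proliferation genes were lower in level but mostly under 2-fold. Of 34 genes of DNA replication and mitosis, 0 were higher and 10 lower, and the median log2 ratio was -0.77. No member had a positive log2 ratio, the highest being CENPA at -0.01. CCNE2, a cyclin of S phase entry, had 1639 and 308 counts and was 5.35-fold lower (counting interval 4.74 to 6.06), and RRM2, ribonucleotide reductase, 3.08-fold lower (counting interval 2.99 to 3.17). MKI67 had 6226 and 3863 counts, a log2 ratio of -0.69. Of the G1 cyclins, CDKs and inhibitors 3 of 14 were lower, among them CCND3, CCNE1 and the inhibitor CDKN1A at -1.30, -1.14 and -1.05. CCND1 and CDKN2A had log2 ratios of 0.37 and 0.49.

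The BCL-2 family held 5 higher and 3 lower genes of 15. The higher ones were the apoptosis promoters BMF, BBC3 (PUMA), BCL2L11 (BIM) and BOK and the survival gene BCL2L1, BMF with 49.5 and 387 counts. The sensitive BMF value was one of those recovered from a month name. BCL2A1, a survival gene and known MITF target, had 295 and 23 counts and was 12.9-fold lower (counting interval 8.43 to 20.7), and BCL2 was 2.76-fold lower. MCL1 had a log2 ratio of -0.12.

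Smaller families were described in the same way. Of 10 S100 genes 4 were lower and 0 higher. Of 8 keratins 4 were higher, KRT8 with 117 and 3485 counts and its partner KRT18 with 323 and 1837. The epithelial transcription factor TP63 was 17.99-fold higher (counting interval 11.1 to 31.3), but EPCAM, KRT5 and KRT14 stayed at 2 and 4.97, 9 and 12, and 5 and 2 counts. Of 4 gap junction genes 3 were lower, GJB1 with 429 and 8 counts and GJA5 with 203 and 2. These 2 reached the count minimum in the sensitive library alone. Of the 2 gap junction genes that reached it in both libraries, 1 was lower. Cancer-testis antigens were almost silent, with 2 of 18 expressed, of which PRAME had 1 count and 67.7 counts. In the ITCH and NEDD4 family of ubiquitin ligases 2 of 10 were higher and 2 lower. Of the leukocyte list CD68 and CD14 were 3.09-fold higher and 16.1-fold higher and LYZ at least 18.1-fold lower.

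Some genes went between silence and clear expression, counted as at most 3 counts in 1 library and at least 100 in the other. 57 genes were switched on in this sense in resistant WM983B, 49 of them protein-coding, and 14 switched off. The 57 include GPR78 and CPZ, whose spans overlap on chromosome 4 and which had 271 and 259 counts in the resistant library. Whether the same reads were counted for both was not tested. The 14 include a second identifier of ITCH that is absent from GENCODE 44, with 389 and 0 counts, while the other identifier of this gene had 1664 and 2422. Of the genes switched on, 17 had no count in the sensitive library and 3 more a fraction that rounded to 0. 17 of the 57 (29.8%) were called higher in no other line, where a call also needs 20 counts in either library of that line, against 39.7% of all genes higher in WM983B. KCNK3, one of them, had a log2 ratio of 1.08 in WM983A on counts below the minimum. BMP5, GREM1, FPR3 and PTGIR belonged to these, as did the cytokine subunit EBI3, with 1 count and 114 counts, and the lipid transporter SPNS3, with 0 and 374. The genes switched off included DMRT2, COL14A1, ABCB5, GJA5, ART3 with 165 and 0 counts, and LAYN, a hyaluronan receptor, with 139 and 2. LAYN was the only one of the 14 (7.14%) at least 2-fold lower in no other line, against 28.9% of all genes lower in WM983B.

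The log2 ratios were also arranged by chromosome, over genes with at least 100 counts in either WM983B library. Chromosome 21 was the lowest, with a median of -0.68 over 124 genes, against 0.03 over all 12478. On it 99 genes (79.8%) had a negative log2 ratio, compared with 48.7% in the genome. At least 2-fold lower were 37 (29.8%), against 8.70% of all 12478, and at least 2-fold higher 7 (5.65%), against 14.5%. The lower values ran along the chromosome. Split by position into 4 blocks of 31 genes, the medians were -0.55, -0.90, -0.44 and -0.49. COL6A1, COL6A2, COL18A1 and MX2 lie on it and were higher. S100B, IFNAR1, IFNAR2 and IFNGR2 lie on it too.

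All other chromosome medians in WM983B lay between -0.24 and 0.40, the highest being chromosomes 20 (0.40) and 19 (0.36). Chromosome 21 had a median of -0.81 in WM983A, 0.33 in WM278, 0.44 in WM1617 and 0.04 in WM902B. Chromosome 20, high in WM983B, was at -0.78 in WM983A. The neighbours of the 12 genes with the largest decreases were also examined. These genes had 7 to 10 expressed neighbours each within 5 on either side, whose median log2 ratios ran from -0.64 to 0.09. Of the 117 neighbours 22 (18.8%) were at least 2-fold lower, beside 8.41% of all expressed genes. Around S100A1, in a cluster that holds other S100 genes, 4 of 10 were lower, and around ITGB8, MAF and RNF125 3 of 10 each, the lowest at -3.23 near ITGB8. Around TYRP1 2 of 10 were lower, and around NPPC and S100B none. DNA copy number was not analysed here.

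**Figure D4:**
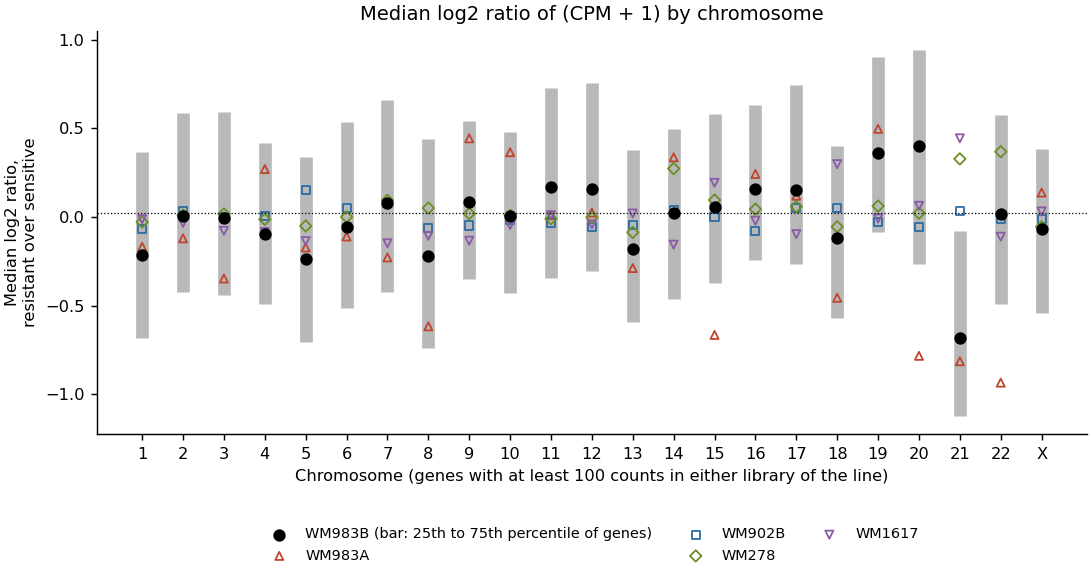
Median log2 ratio of (CPM + 1), resistant over sensitive, for each chromosome, with black points for WM983B, grey bars from the 25th to the 75th percentile of its genes and open symbols for the 4 other lines. The dotted line is the WM983B median over all chromosomes. In WM983B chromosome 21 lies lowest at -0.68, below the other chromosomes of the line.

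The other lines were set beside WM983B as single pairs, which share no library with it, and the overlaps carry no test. Of the 2650 genes at least 2-fold higher in WM983B, 988 (37.3%) were also higher in WM902B, where 13.9% of expressed genes were, and 744 (28.1%) in WM983A, where 16.1% were. Seen from the other side these made 43.3% of the increases of WM902B and 27.2% of those of WM983A. Of the 1403 genes lower in WM983B, 760 (54.2%) were lower in WM983A, against 18.7% of its expressed genes, and 556 (39.6%) in WM902B, against 9.55%. They made 24.03% and 35.3% of the decreases of these lines.

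Some genes were called in opposite directions. Of the increases of WM983B 370 (13.96%) were at least 2-fold lower in WM983A and 84 (3.17%) in WM902B, and of its decreases 63 (4.49%) were higher in WM983A and 71 (5.06%) in WM902B. Each of these shares lay below the share of all expressed genes that the line concerned had in that direction. 1053 of the 2650 increases (39.7%) and 405 of the 1403 decreases (28.9%) were called in the same direction in none of the other 4 lines. 147 increases (5.55%) and 91 decreases (6.49%) were shared with all of WM983A, WM278 and WM902B. The matching shares over all expressed genes were not computed, so no excess or shortfall can be read from these counts. WM1617 showed few differences of its own, 1.18% of expressed genes higher and 2.44% lower, and in WM278 these shares were 10.4% and 5.39%.

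By list, interferon-stimulated genes had medians of 1.90 in WM983B, 2.09 in WM902B, 1.19 in WM278, -0.85 in WM983A and -0.34 in WM1617. Antigen presentation genes had medians of 1.60, 1.70, 0.68, -0.88 and -0.12 in the same order, and collagens of 1.54, 2.44, 0.33, -1.30 and 0.96. Pigment genes were low in WM983B, WM902B and WM983A, at -1.72, -1.79 and -2.74, and melanocyte regulators at -1.96, -0.84 and -3.56. The proliferation list had -0.77 in WM983B, -0.78 in WM902B, -0.79 in WM278 and -0.04 in WM983A. Hypoxia targets and stress genes, with medians of 0.95 and 1.00 in WM983B, had medians between -0.24 and 0.02 and between -0.46 and -0.03 in the others. Whether the lines differ was not tested.

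**Figure D5:**
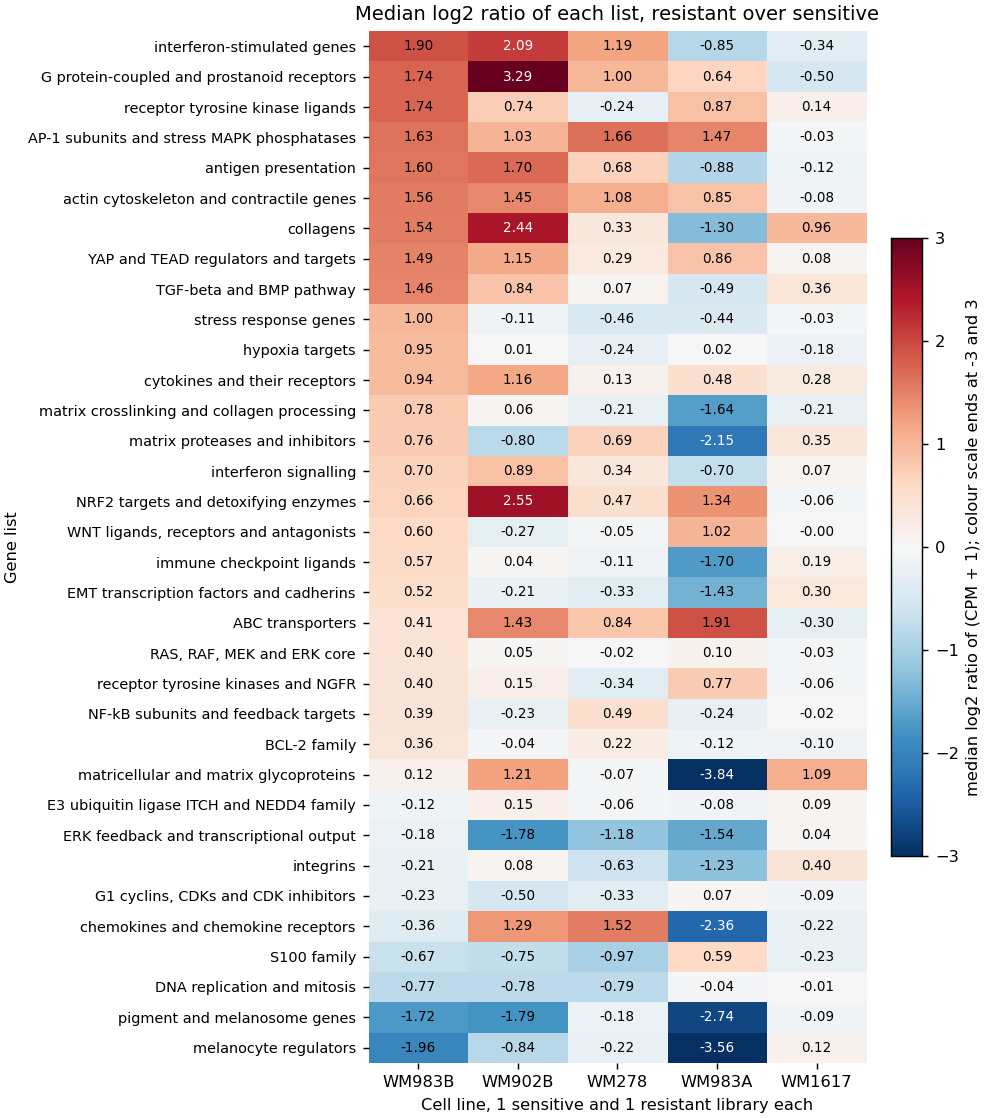
Median log2 ratio of (CPM + 1), resistant over sensitive, of each gene list (down the side) in the 5 lines (across), red for higher and blue for lower in the resistant library, with the value printed in each cell. Medians cover the members expressed in WM983B and in the line shown. The interferon and antigen presentation lists are positive in WM983B, WM902B and WM278 and negative in WM983A, and the pigment list is negative in all 5, from -2.74 in WM983A to -0.09 in WM1617.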

How the data were processed

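Expression was measured by oligo-dT selected mRNA sequencing (single-end reads) in 5 melanoma cell lines and their resistant derivatives, 1 library each. Per the submitters' processing notes and methods, HISAT2 placed the reads on GRCh38, and StrandNGS handled the later steps. The versions, the gene annotation, the strand setting and the handling of shared reads are not given in the sources used here. The raw values deposited are expected counts, which can hold fractions. The normalized values deposited for resistant WM983B are log2 ratios to the sensitive library after DESeq scaling. In the sensitive WM983B file 455 raw values had become month names. They were solved from that log2 column, which could be rebuilt for all other genes to within 1.14e-06, and all 455 fitted the digits still visible. 146 of them were expressed.

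Raw counts were divided by library totals. Genes with at least 20 counts in either library entered, log2 ratios used CPM with 1 added, and a call is a fold of at least 2. Exact 95% counting intervals came from the Clopper-Pearson interval of rounded counts. With 1 library per state no test was possible, and the floor of 3 counts limits what can be called silent. Positions and gene types are from GENCODE 44, which held 16507 of the 16683 expressed genes. TMM and median-of-ratios factors came from edgeR 4.0.16 and DESeq2 1.42.0 in R 4.3.3, with Python 3.11.15, numpy 2.4.6, pandas 2.3.3 and scipy 1.17.1 for the rest. The calling step and the intervals were tested on simulated data. The comparison, the 41 gene lists and the markers were chosen with earlier results of these data known. Genes were named by rule, namely POSTN, MMP2 and IFITM1, the 12 largest and 12 smallest log2 ratios and the 6 largest gains and losses in CPM among protein-coding genes, the neighbours of genes that fell, and in each list the first gene and the 4 members with the largest log2 ratio in size. Further list members, and EBI3, SPNS3, KCNK3, ART3 and LAYN, were picked after their values were seen. Some genes that the rule names are not reported here.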

Additional observations from a re-analysis of the deposited data

Results flagged for a closer look

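These values went one way in WM983B and the other way in another line. Each rests on 1 library per state, and no difference between lines was tested. Compared with WM983A, the line from the primary tumour of the same patient, 17 of 39 lists had a median of the other sign, 11 of them with both medians at least 0.5 from 0. The 7 of these with at least 10 expressed members in both lines are given first. Collagens had a median log2 ratio of -1.30 in WM983A against 1.54 in WM983B, collagen processing genes -1.64 against 0.78, and matrix proteases and inhibitors -2.15 against 0.76. The protease list was also at -0.80 in WM902B. Interferon-stimulated genes had -0.85 in WM983A against 1.90, interferon signalling -0.70 against 0.70, and antigen presentation -0.88 against 1.60. The S100 family went the other way, at 0.59 in WM983A and -0.67 in WM983B. The shorter lists were immune checkpoint genes, at -1.70 in WM983A against 0.57, EMT factors and cadherins, at -1.43 against 0.52, fibroblast markers, at -1.002 against 1.44, and leukocyte markers, at -1.46 over 2 genes against 1.56 over 3.

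Among single genes, HLA-B had a log2 ratio of -4.44 in WM983A and 2.71 in WM983B, WNT5A -5.15 and 2.80, and FAP, a surface protease of activated fibroblasts, -4.27 and 3.07. In WM278, S100B stood at 2.83 against -4.53 in WM983B and BMP2 at -2.70 against 3.04. By chromosome, the median of chromosome 20 was -0.78 in WM983A and 0.40 in WM983B. That of chromosome 21 was 0.33 in WM278 and 0.44 in WM1617 against -0.68 in WM983B.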

How the results depend on the processing

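With 4 added to CPM in place of 1, the genes at least 2-fold higher numbered 1540 instead of 2650 and the genes at least 2-fold lower 905 instead of 1403. The larger added value shrinks the ratios of genes with few counts. Under the other 9 alternatives both counts stayed within 1.5 times, from 1836 to 3149 higher and from 1062 to 1651 lower. With the counting interval wholly beyond 2-fold, 2085 were higher and 1062 lower. TMM and median-of-ratios factors moved the median of all genes by -0.072 and -0.077 on the log2 scale. None of the 193 expressed genes chosen by the naming rule left or crossed the 2-fold mark under either scaling or with 0.25 added, and 14 did with 4 added, among them ADAMTS2, CDH11, ACTA2, PDCD1LG2 and LYZ. No called gene of that set changed sign. Of 320 list counts 20 moved by more than 1.5 times, of 160 list medians 20 left the median counting interval of their list, and of 772 single-gene values 124 left their counting interval. With 4 added to CPM the number higher fell from 17 to 10 for G protein-coupled receptors, from 9 to 5 for matrix proteases, from 5 to 3 for fibroblast markers and from 4 to 2 for both EMT factors and checkpoint genes, and the number lower from 5 to 2 for chemokines, from 4 to 1 for receptor ligands and from 2 to 0 for G protein-coupled receptors. With 0.25 added the number of receptor tyrosine kinases lower went from 3 to 5. The other list counts that moved did so by 1 gene, in the lists of melanocyte regulators, collagen processing, contractile genes, NF-kB, ABC transporters, checkpoint genes, keratins, cancer-testis antigens and leukocyte markers. The list medians that moved kept their sign, and the widest range was that of fibroblast markers, from 0.52 to 2.98. No paired analysis was possible because each state had 1 library, and no library could be left out for the same reason. Depth limits ratios that start from few counts, as for COL5A1, CXCL12, ADM and SOX9. The spread between cultures is unknown.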

Other observations

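Long noncoding RNA genes were at least 2-fold higher in 356 of 1790 cases (19.9%) and lower in 136 (7.598%), with a median log2 ratio of 0.34, beside 16.2% and 8.76% of protein-coding genes and a median of 0.08. Across the 15276 genes expressed in both lines, the log2 ratios of WM983B and WM902B had a Pearson r of 0.56. With WM983A r was 0.37 over 15616 genes, and with WM1617 -0.12 over 14876. Genes are not independent, and these values are descriptions.

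ITCH, a ubiquitin ligase, appears under a pair of Ensembl identifiers in the files. The identifier present in GENCODE 44 had 1664 and 2422 counts, a log2 ratio of 0.53. The other had 389 and 0 counts, so that the second identifier alone read as lost. TAP1 was listed at 0 in all 10 libraries of the series.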
